A study of Mus musculus with 6 samples.

Results

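The transcripts described here are those of the LIF receptor, of the JAK kinases and of the STAT factors in mouse ES cells, 9 genes in all: *Lifr*, *Il6st*, *Jak1*, *Jak2*, *Tyk2*, *Stat2*, *Stat3*, *Stat5a* and *Stat5b*. They were followed at every probe set whose single gene symbol in the platform annotation is one of these names, which gave 24 of the 45037 probe sets tested. RNA of 6 samples of E14TG2a, an ES cell line, was hybridised to Affymetrix mouse arrays. For the 3 undifferentiated samples, cells kept in LIF (1000 units/ml) were sorted by FACS as 5T4-negative. For the 3 differentiating samples, cells were cultured for 3 days in medium without added LIF and sorted as 5T4-positive, so LIF withdrawal and the sort cannot be told apart. The label "Differentiated" is that of the submitters, and both groups are labelled as the same line, with no introduced allele named. Neither the labels nor the methods state that the numbered replicates were separate cultures, so the p-values cover the spread among these samples, which may be technical. Values are log2 RMA values, a scale on which 1 unit is a doubling of signal. Values of different probe sets cannot be compared as levels, because each has its own brightness.

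LIF is a cytokine of the interleukin-6 family that keeps mouse ES cells undifferentiated. It binds a pair of surface chains, the LIF receptor (*Lifr*) and gp130 (*Il6st*), which have no kinase activity of their own. Kinases of the JAK family (*Jak1*, *Jak2*, *Tyk2*) sit on the receptor tails and phosphorylate them, and STAT3 docks there, is phosphorylated in turn and moves to the nucleus, where it activates genes such as *Socs3* and *Klf4*. STAT5A and STAT5B are close relatives used mainly by hormone and growth factor receptors, and STAT2 works with IRF9 downstream of type I interferon.

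The arrays had medians of 5.54 to 5.65. Within a group they correlated at 0.974 or more over all probe sets, and undifferentiated replicate 1 was the least like its group (0.974 and 0.979). E14TG2a is known as an Hprt-deficient line, but the *Hprt* probe set read 10.41 in differentiating replicate 2 and 10.03 in undifferentiated replicate 2, against 5.19 to 5.80 on the other 4 arrays. The arrays numbered 2 in both groups therefore went against this property of the labelled line, and the members' changes are also given without them. *Tpbg*, the gene of 5T4, did not pass the test (1.27 on the log2 scale, adjusted p = 0.22 from limma), and undifferentiated replicate 2 (6.76) was not below differentiating replicate 1 (6.71). The 9 listed ES cell markers were all bright, with means between percentiles 85.7 and 99.8 of the table, and their summed signal was 15.37 to 15.66 (log2) in undifferentiated and 14.52 to 14.90 in differentiating cells. At their brightest probe sets 2 passed lower, *Pou5f1* (-0.68, adjusted p = 0.0859) and *Sox2* (-0.96, adjusted p = 0.0897), and *Esrrb* passed lower at a dimmer one. Of the 9, 8 had a negative change, 7 of them without overlap, and *Lin28a* had a positive one (0.32) with overlap. The summed signal of 8 primitive endoderm markers was 7.89 to 8.60 in undifferentiated and 8.83 to 9.22 in differentiating cells, with none of them passing at its brightest probe set. These sums weigh each gene by the brightness of its probe set, and *Dab2* was the brightest of the list (group means 6.34 and 8.30) and was higher at its dimmer probe sets. *Pdgfra* was higher by 0.53 without overlap but did not pass (adjusted p = 0.152 from limma). *Gata4*, *Gata6*, *Sox17*, *Sox7*, *Foxa2* and *Afp* had changes of -0.03 to 0.11 with overlap. The ranges of the 8 fibroblast markers overlapped (8.68 to 9.65 against 9.09 to 10.20), as did those of the 8 blood and endothelial markers (8.92 to 9.59 against 7.96 to 9.11). No gene of these 2 lists passed at its brightest probe set. Of the fibroblast markers 3 were higher without overlap (*Dcn* by 0.66, *Postn* by 0.43 and *Lum* by 0.22) and 0 lower, against 10% and 10.3% of all probe sets. *Lum* and *Postn* were dim, with means at percentiles 13.1 and 42.7 of the table. *Col1a2* had the largest change of this list (1.38, with overlap), and *Thy1* and *Pdgfrb* had negative ones (-0.11 and -0.16, with overlap). Of the blood and endothelial markers 1 was lower without overlap and 0 higher. The largest changes of that list were those of *Pecam1* (-1.93) and *Tek* (-0.92), both with overlap, and 6 of the 8 changes were negative and 2 positive. The part of these cell types in the results below was not tested, and in bulk samples fewer cells of a type and less RNA per cell cannot be told apart.

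The sequences upstream of 2 annotated starts of *Lifr*, the gene whose transcript changed most among the 9, are shown next to that of *Socs3*. Among the 4 listed STAT3 targets that passed lower, *Socs3* is the only gene whose window holds the motif searched. The sequences are RefSeq ones of GRCm38.p6, the 250 bases before the annotated start on the strand of the gene, 5′ to 3′. Capitals mark the STAT motif TTCNNNGAA, which reads the same on both strands. The windows of *Lifr* lie at chr15:7129322-7129571 and chr15:7140292-7140541 on the plus strand, and that of *Socs3* at chr11:117969367-117969616 on the minus strand. The annotated *Lifr* gene begins at chr15:7090610, so both windows lie within it, and the bases before its outermost start were not searched. Upstream and downstream in the labels refer to these 2 windows only.
Lifr upstream start: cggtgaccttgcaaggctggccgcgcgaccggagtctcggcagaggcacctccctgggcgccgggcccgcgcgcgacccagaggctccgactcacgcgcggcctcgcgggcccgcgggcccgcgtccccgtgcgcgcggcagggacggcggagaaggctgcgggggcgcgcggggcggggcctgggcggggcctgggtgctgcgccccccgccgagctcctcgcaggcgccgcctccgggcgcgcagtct
Lifr downstream start: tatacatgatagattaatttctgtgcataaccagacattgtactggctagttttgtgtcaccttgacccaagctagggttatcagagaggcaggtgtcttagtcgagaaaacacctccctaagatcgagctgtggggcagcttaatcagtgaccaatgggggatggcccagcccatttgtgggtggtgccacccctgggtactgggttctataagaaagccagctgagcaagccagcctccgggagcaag
Socs3: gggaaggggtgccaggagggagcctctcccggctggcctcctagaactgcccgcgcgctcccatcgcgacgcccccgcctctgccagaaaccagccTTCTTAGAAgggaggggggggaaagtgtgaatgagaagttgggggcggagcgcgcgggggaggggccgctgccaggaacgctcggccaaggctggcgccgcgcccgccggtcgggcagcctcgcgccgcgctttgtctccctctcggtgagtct

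The upstream *Lifr* window is 82.4% G and C and the downstream one 50.8%. The 9 genes have 12 such windows, of which 0 hold TTCNNNGAA, against 7.02% of 32851 windows of the same length. Of the 4 windows of the STAT3 targets that passed, 1 holds it, that of *Socs3* (TTCTTAGAA, starting 154 bases before the start). These matches describe letters, not binding, and a motif outside these 250 bases would not be seen. Nor would a motif before a start that has no window, such as the outermost start of *Lifr*.

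Of the 24 probe sets, 1 was lower in differentiating cells and 0 were higher at an adjusted p under 0.1 (adjusted over all 45037 probe sets), against 1.03% lower and 0.573% higher in the whole table. That probe set belongs to *Lifr*. At an unadjusted p under 0.05, 10 were lower and 2 higher (41.7% and 8.33%), against 7.44% and 6.28% of all probe sets. In 9 probe sets every differentiating array lay below every undifferentiated array, and in 2 every one lay above, where 10.3% and 10% of all probe sets did so. In both counts the lower ones were of *Lifr*, *Il6st*, *Stat3* and *Tyk2* and the higher ones of *Jak2*, so they repeat transcripts and are not independent. Only 2 of the 24 had a mean under the median of all probe sets, while the shares of the whole table take in bright and dim ones alike. The median log2 fold change of the 24 was -0.38, against 0.03 over all probe sets. *Lifr*, *Il6st* and *Stat5a* had negative changes at every probe set, *Jak2* and *Stat5b* had positive ones at every probe set, and *Jak1*, *Tyk2*, *Stat2* and *Stat3* had both signs. Without the replicate 2 arrays 0 member probe sets passed in limma, as did 0 of all probe sets, and 10 member probe sets, of 5 genes, and 4321 of all probe sets had an unadjusted p under 0.05.

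**Figure D1:**
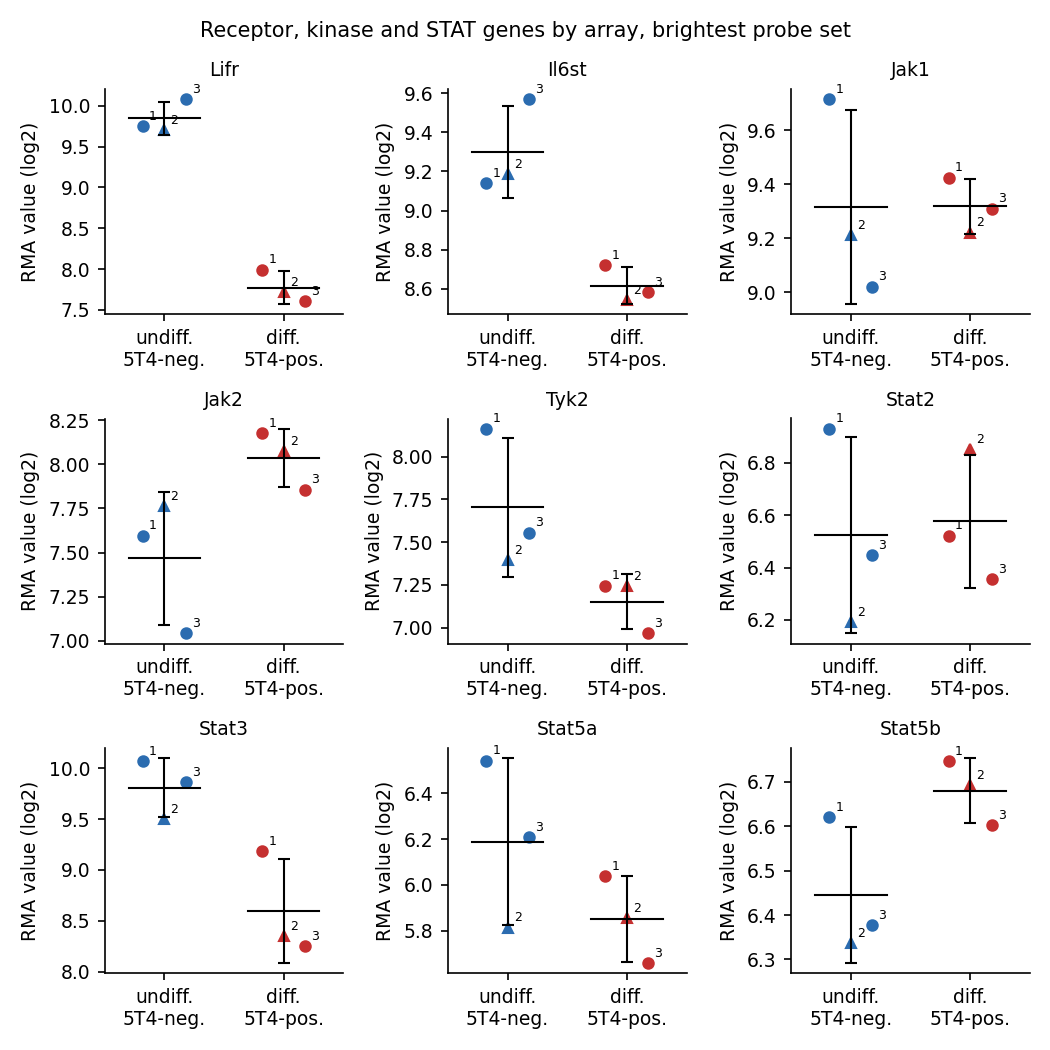
RMA values (vertical axis, log2, scaled by gene and not starting at 0) of the 9 genes at their brightest probe set, undifferentiated 5T4-negative arrays in blue and differentiating 5T4-positive arrays in red; numbers are replicates, triangles mark replicate 2, and each black line with its bar is a group's mean ± SD (n = 3). The groups separate for *Lifr* (9.70 to 10.08 against 7.61 to 7.99), *Il6st*, *Stat3*, *Tyk2* and, in the other direction, *Jak2*, while those of *Jak1*, *Stat2*, *Stat5a* and *Stat5b* overlap.

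*Lifr* encodes the chain that binds LIF. At its brightest probe set (1454984_at) it read 9.75, 9.70 and 10.08 in undifferentiated replicates 1 to 3 and 7.99, 7.71 and 7.61 in differentiating replicates 1 to 3. The groups were far apart relative to their spread, with SDs of 0.20 in each. The log2 fold change was -2.07, or 4.21-fold lower (standard error 0.16, 95% interval -2.45 to -1.70, adjusted p = 0.0242 from limma). Paired by number, the differences were -1.76, -1.99 and -2.47, so the replicate 2 arrays showed the decrease as well. Without them it was -2.11, and this did not pass (adjusted p = 0.129). Leaving out single arrays moved it between -2.18 and -1.96, and it did not pass without differentiating replicate 2 (adjusted p = 0.175), differentiating replicate 3 (adjusted p = 0.149) or undifferentiated replicate 3 (adjusted p = 0.143). Over all probe sets only 0, 3 and 1 were lower in these settings, in this order, and 0 were higher in each.

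A second *Lifr* probe set (1425107_a_at) read 7.61, 5.96 and 6.39 in undifferentiated and 4.94, 4.97 and 4.08 in differentiating cells. Its groups did not overlap either, but undifferentiated replicate 1 stood 1.22 units above the next array of its group, and the change of -1.99 (standard error 0.45) did not pass (adjusted p = 0.125). Without the replicate 2 arrays it was -2.49 (adjusted p = 0.214). The third probe set (1450207_at) read 6.07, 5.81 and 6.03 in undifferentiated and 5.83, 5.51 and 5.02 in differentiating cells. There the groups overlapped, and the change was -0.52 (adjusted p = 0.352), or -0.62 without replicate 2. Both dimmer probe sets had means near the middle of all probe sets (51.0th and 51.8th percentile), and the table has no detection calls to set low signal apart from background.

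*Il6st* encodes gp130, a signalling chain shared by many cytokines of the interleukin-6 family. At its brightest probe set (1452843_at) it read 9.14, 9.19 and 9.57 in undifferentiated and 8.72, 8.54 and 8.58 in differentiating cells. The groups did not overlap, but the log2 fold change of -0.68 (95% interval -1.04 to -0.33) did not pass (adjusted p = 0.118). The other 3 probe sets gave -0.63, -1.04 and -0.43 (adjusted p from 0.173 to 0.527), and the groups overlapped only at the last (1421239_at), where replicate 1 differed by 0.22 in the other direction. One of them (1460295_s_at) carries the suffix that Affymetrix uses for probe sets shared by several transcripts. Without the replicate 2 arrays the 4 changes were -0.70, -0.61, -0.80 and -0.39, none of which passed.

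The change of *Lifr* was compared with that of *Il6st* within each array, as the log2 ratio of their brightest probe sets relative to the undifferentiated mean. This ratio was 0.06, -0.03 and -0.04 in undifferentiated and -1.27, -1.37 and -1.52 in differentiating cells. The groups differed by -1.39 on the log2 scale and did not overlap, the ratio being lower in differentiating cells. The exact two-sided permutation p was 0.1, the smallest that 3 against 3 arrays allow (adjusted p = 0.15 over 3 such ratios, all chosen after the values were seen). The difference was -1.41 without the replicate 2 arrays, and for the ratios of *Stat3* to *Stat5a* and *Jak2* to *Jak1* described further on it was -0.72 and 0.70.

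*Jak1*, the kinase that gp130 depends on most, read 9.71, 9.21 and 9.02 in undifferentiated and 9.42, 9.22 and 9.31 in differentiating cells at its brightest probe set (1433805_at). The differentiating values lay inside the range of the undifferentiated ones. The change was 0.00 on the log2 scale (95% interval -0.45 to 0.46, adjusted p = 0.997), which allows a change of up to 1.37-fold in either direction. The other *Jak1* probe sets gave -0.04 and -0.14, with groups that overlapped. The 3 changes without the replicate 2 arrays were -0.0004, -0.0057 and -0.19.

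*Jak2*, a kinase also used by hormone receptors, read 7.60, 7.76 and 7.04 in undifferentiated and 8.18, 8.08 and 7.86 in differentiating cells (1421066_at). A second probe set (1421065_at) read 7.19, 7.66 and 6.25 against 8.29, 7.87 and 7.74. At both, every differentiating array lay above every undifferentiated one, and undifferentiated replicate 3 was the lowest of all. The log2 fold changes of 0.57 (95% interval 0.08 to 1.06) and 0.93 (0.10 to 1.77) did not pass (adjusted p = 0.291 and 0.313). Within the replicate 2 arrays the differences were smaller, 0.31 and 0.21, and without them the changes were 0.70 and 1.30 (adjusted p = 0.5 and 0.369). The ratio of *Jak2* to *Jak1* within arrays was higher by 0.57 in differentiating cells, with groups that overlapped because undifferentiated replicate 2 (0.40) lay above differentiating replicate 3 (0.39), and an exact two-sided permutation p of 0.2.

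*Tyk2*, the JAK kinase best known from interferon and interleukin-12 receptors, read 8.16, 7.39 and 7.56 in undifferentiated and 7.25, 7.24 and 6.97 in differentiating cells (1417306_at). The groups did not overlap, and the change of -0.55 (95% interval -1.06 to -0.04) did not pass (adjusted p = 0.326). Much of it lay in undifferentiated replicate 1, and the replicate 2 arrays differed by only -0.15. The second *Tyk2* probe set (1432576_at) gave 0.24 with overlapping groups, so the probe sets of this gene differed in sign. They were -0.75 (adjusted p = 0.469) and 0.34 without the replicate 2 arrays.

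*Stat3* encodes the factor through which LIF sustains self-renewal. At its brightest probe set (1426587_a_at) it read 10.07, 9.50 and 9.86 in undifferentiated and 9.18, 8.35 and 8.25 in differentiating cells. At the next (1460700_at) it read 9.09, 8.80 and 9.04 against 8.42, 7.74 and 7.48. Both separated the groups, and at both differentiating replicate 1 lay closest to the undifferentiated arrays. The log2 fold changes were -1.22 (95% interval -1.87 to -0.56) and -1.10 (-1.68 to -0.52), which did not pass (adjusted p = 0.127 and 0.121). Leaving out single arrays moved them between -1.51 and -1.04 and between -1.37 and -0.90 (adjusted p in limma up to 0.425 and 0.414). Of these settings they passed only without differentiating replicate 1, the array just named (-1.51 and -1.37, adjusted p = 0.048 and 0.0407). Over all probe sets 485 were then lower and 508 higher, against 462 and 258 with all 6 arrays. Without the replicate 2 arrays the 2 *Stat3* changes were -1.25 and -1.12 (adjusted p = 0.336 and 0.39), close to the values of all 6 arrays.

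The 2 dimmer *Stat3* probe sets differed from each other. One (1459961_a_at) read 6.89, 5.84 and 6.25 in undifferentiated and 5.63, 5.52 and 5.10 in differentiating cells, a change of -0.91 without overlap (adjusted p = 0.226). The other (1424272_at) read 5.36, 5.34 and 5.65 against 5.58, 5.81 and 5.35, a change of 0.13 with overlap (95% interval -0.24 to 0.51). These changes were -1.20 (adjusted p = 0.309) and -0.03 without the replicate 2 arrays, the latter on the other side of 0. The latter is the dimmest of the 4, with a mean at percentile 49.0 of the table.

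**Figure D2:**
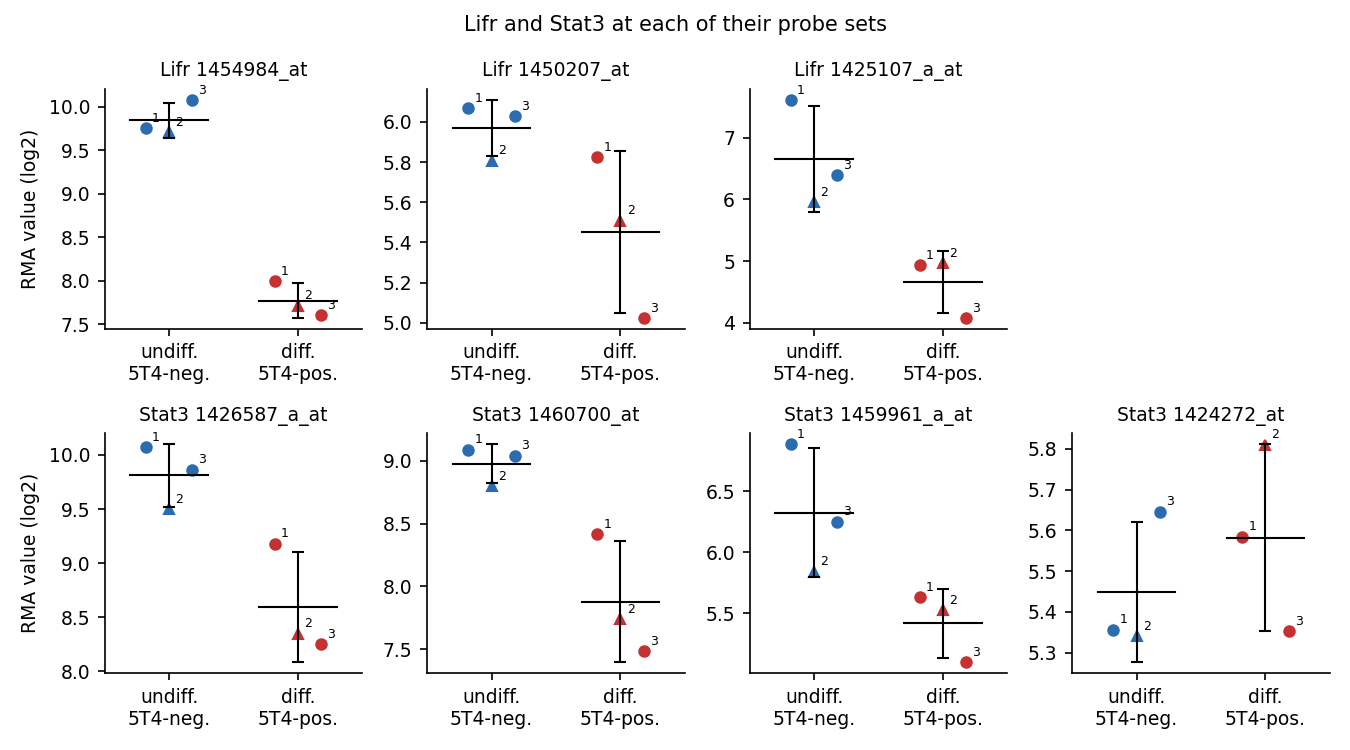
RMA values (vertical axis, log2, scaled by panel and not starting at 0) of *Lifr* (upper row) and *Stat3* (lower row) at each probe set, undifferentiated in blue and differentiating in red; numbers are replicates, triangles mark replicate 2, and each black line with its bar is a group's mean ± SD (n = 3). The groups separate at 2 of the 3 *Lifr* and 3 of the 4 *Stat3* probe sets, and differentiating replicate 1 has the highest *Stat3* value of its group at the brightest probe set (9.18).

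*Stat5b*, *Stat5a* and *Stat3* are consecutive protein-coding genes on chromosome 11. *Stat5a* read 6.54, 5.81 and 6.21 in undifferentiated and 6.04, 5.86 and 5.66 in differentiating cells (1421469_a_at), a change of -0.34 with overlapping groups (95% interval -0.83 to 0.15, adjusted p = 0.542). Its dimmer probe set, with a mean at percentile 36.2 of all probe sets, gave -0.42. *Stat5b* read 6.62, 6.34 and 6.38 in undifferentiated and 6.75, 6.69 and 6.60 in differentiating cells (1422102_a_at), a change of 0.23 with the groups overlapping by undifferentiated replicate 1 alone (95% interval -0.06 to 0.53, adjusted p = 0.477). Its other probe set gave 0.66 (adjusted p = 0.448), with -0.28 in replicate 1 and 1.21 and 1.04 in replicates 2 and 3. Within arrays, the ratio of *Stat3* to *Stat5a* differed by -0.88 on the log2 scale without overlap (exact two-sided permutation p = 0.1). The changes without the replicate 2 arrays were -0.53 and -0.56 for *Stat5a* and 0.17 and 0.38 for *Stat5b*, and none passed. The *Stat5a* and *Stat5b* transcripts are similar in sequence, and how far probes of one also read the other was not tested.

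*Stat2* read 6.93, 6.19 and 6.45 in undifferentiated and 6.52, 6.85 and 6.35 in differentiating cells at its brightest probe set (1450403_at), with full overlap. Its log2 fold change was 0.05 (95% interval -0.47 to 0.58, adjusted p = 0.945). It was -0.25 without the replicate 2 arrays, which differed by 0.66 in the other direction. The second *Stat2* probe set gave -0.31 with all arrays and -0.62 without replicate 2, neither of which passed.

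**Figure D3:**
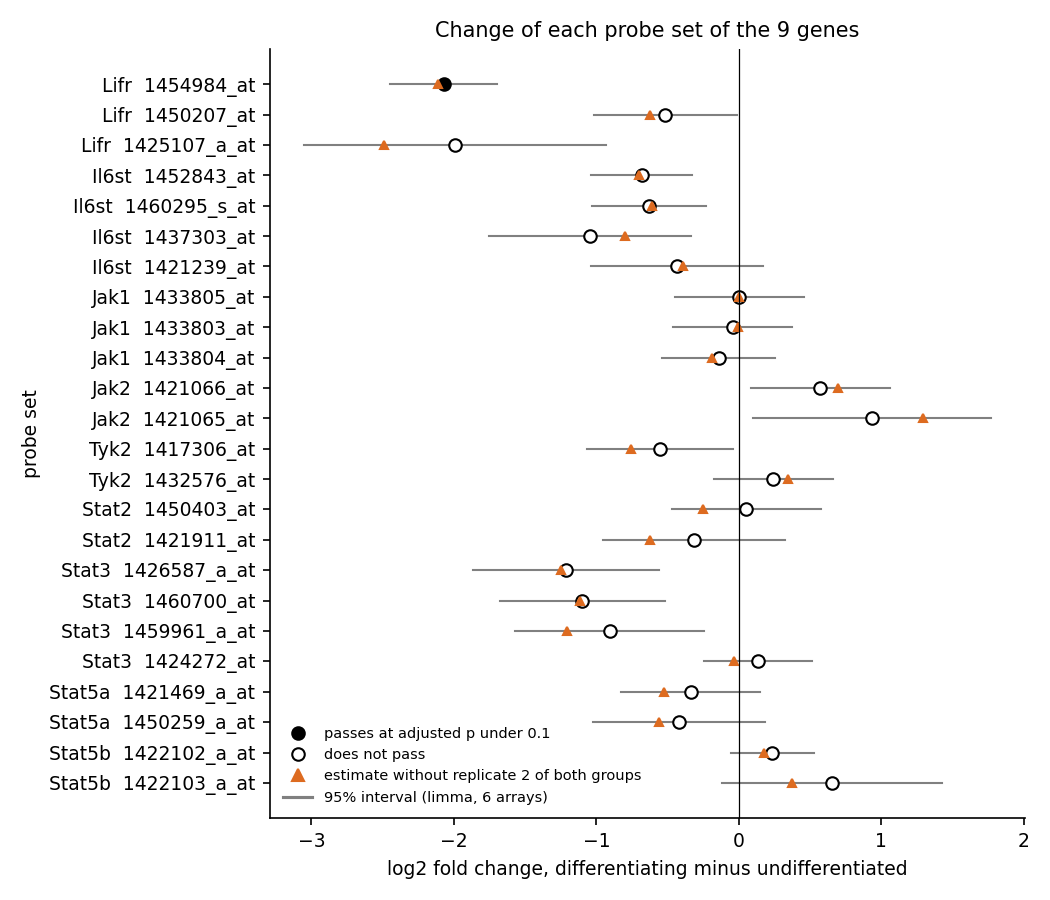
Change of signal (horizontal axis, log2, differentiating minus undifferentiated) at each of the 24 probe sets (vertical axis) with its 95% interval from limma on 6 arrays; filled circles pass at an adjusted p under 0.1, open circles do not, and orange triangles give the estimate without the replicate 2 arrays of both groups. Only the brightest *Lifr* probe set passes (-2.07), the intervals of both *Jak2* probe sets lie above 0, and the triangle of the brightest *Stat2* probe set lies on the other side of 0 (-0.25).

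Around these genes, 89 of 102 listed pathway genes were measured, and at their brightest probe sets 4 were lower in differentiating cells and 0 higher, against 1.45% lower and 0.797% higher of 18193 genes. All 4 stand in the list of 20 STAT3 targets, of which 16 did not pass and 15 had a negative change, with a median of -0.45 against 0.02 over all genes. *Socs3*, the feedback inhibitor that blocks gp130 and the JAKs, read 11.80, 10.91 and 11.41 in undifferentiated and 8.49, 7.49 and 7.88 in differentiating cells (log2 fold change -3.42, adjusted p = 0.0303). *Klf4*, a transcription factor of the naive state, read 10.87, 10.33 and 11.32 against 8.17, 6.24 and 5.50 (-4.20, adjusted p = 0.0669). *Tfcp2l1*, another such factor, read 9.81, 9.63 and 10.12 against 8.39, 7.15 and 7.01 (-2.33, adjusted p = 0.0677). *Bcl3*, a regulator of NF-kB dimers, read 7.50, 7.43 and 8.00 against 5.93, 5.06 and 5.40 (-2.18, adjusted p = 0.0428). In each of these the groups did not overlap, and the highest differentiating value was that of replicate 1. The differentiating arrays spread most for *Klf4* and *Tfcp2l1* (SDs of 1.38 and 0.76). Without the replicate 2 arrays the 4 changes were -3.42, -4.26, -2.26 and -2.08 and none passed (adjusted p from 0.12 to 0.23), as did 0 of all probe sets. *Pim1*, a survival kinase gene of the same list, had a change of -0.41 at its brightest probe set (adjusted p = 0.297) and was lower at a dimmer one (1423006_at, -0.55, adjusted p = 0.0987).

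In the remaining parts of the pathway no gene but *Socs3* passed. None of 6 measured ligand genes of the interleukin-6 family passed, including *Lif* itself (log2 fold change 0.21, adjusted p = 0.75), and the largest changes were those of *Ctf1*, the gene of cardiotrophin-1 (0.30, adjusted p = 0.469), and *Lif*. None of 5 other receptor genes of the family passed either, with the largest changes at *Il27ra* (-0.31, adjusted p = 0.48) and *Cntfr* (0.21, adjusted p = 0.622), the receptor genes of interleukin-27 and of ciliary neurotrophic factor. Of 15 inhibitors of JAK-STAT signalling, *Socs3* alone passed, and *Pias1* and *Pias2*, chosen after their values were seen, had changes of opposite sign without overlap (0.55 and -0.74, adjusted p = 0.262 and 0.193). Of 13 genes of the ERK, PI3K and SRC branches below gp130, none passed, and the largest changes were those of the exchange factor gene *Sos2* (0.88, adjusted p = 0.283) and the SRC family kinase gene *Yes1* (-0.78, adjusted p = 0.201). The 3 measured genes of other JAKs and STATs, *Jak3*, *Stat4* and *Stat6*, had changes of -0.78, -1.02 and -0.55, and none passed (adjusted p = 0.412, 0.202 and 0.355). *Stat4* read 8.24, 7.05 and 7.91 in undifferentiated and 6.79, 6.81 and 6.53 in differentiating cells, without overlap. Among 9 measured genes of the STAT2 partner and of interferon targets none passed, and the largest changes were those of *Oas1a*, an antiviral enzyme gene (-0.90, adjusted p = 0.476), and *Irf9*, the gene of the DNA-binding partner of STAT2 (-0.58, adjusted p = 0.241). Of these 9, 6 had a positive change, and the median of the 9 was 0.27. *Irf9* was lower without overlap, and *Usp18* (0.37, adjusted p = 0.296) and *Ifit3* (0.27, adjusted p = 0.404) were higher without overlap. The latter 2 were dim, with means at percentiles 26.6 and 39.1 of the table. No gene of these lists passed without the replicate 2 arrays, a setting in which 0 of all probe sets passed, so this says nothing particular about these genes.

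**Figure D4:**
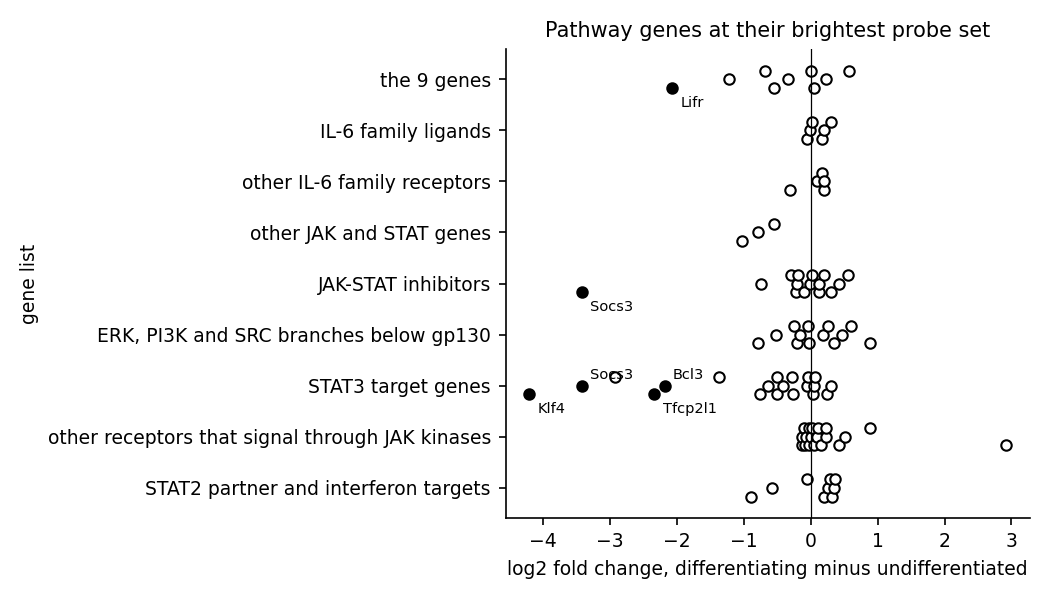
Change of signal (horizontal axis, log2, differentiating minus undifferentiated) of the 9 genes and of the measured genes of 8 pathway lists (vertical axis), with a single point, at the brightest probe set, for each gene; filled, named points have an adjusted p under 0.1, points of a list are shifted up or down for legibility only, and *Socs3* stands in 2 lists. The named points all lie left of 0, from *Klf4* (-4.20) to *Lifr* (-2.07), and the open point farthest right is *Ghr* (2.92).

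Of 19 other receptors that signal through JAK kinases, none passed, and 12 had a positive change. *Ghr*, the gene of the growth hormone receptor, which uses JAK2, read 4.86, 8.27 and 5.91 in undifferentiated and 9.25, 8.86 and 9.68 in differentiating cells. The log2 fold change was 2.92 without overlap of the groups, but the undifferentiated arrays were 3.41 units apart, with replicate 2 close to the differentiating ones, and the change did not pass (adjusted p = 0.182). It was 4.08 without the replicate 2 arrays (adjusted p = 0.12). *Il15ra*, an interleukin-15 receptor gene, had a change of 0.88 without overlap (adjusted p = 0.22).

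The genes whose profile over the 6 arrays lay nearest to that of *Lifr*, by the root mean square distance of values centred on each gene's own mean, were *Syce1* (distance 0.10 on the log2 scale), *Fblim1* (0.19), *Bcl3* (0.20), *Aard* (0.21) and *Btbd11* (0.22) of 18192 genes compared. Their log2 fold changes lay between -2.20 and -1.77, near that of *Lifr* because they were chosen by their values on the same arrays. *Syce1* is known for a protein of the synaptonemal complex of meiosis and *Fblim1* for an adaptor at cell adhesions, and *Bcl3* was also among the STAT3 targets above.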

How the data were processed

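The authors processed the Affymetrix arrays with RMA in the affy library (version not given in the sources used here). The deposited log2 values, a column for each array, were used as they are. Array control probe sets (64) were left out. Symbols came from the platform annotation of 2016, and a gene's brightest probe set is the one with the highest mean over the 6 arrays. Groups were compared with limma 3.58.1 in R 4.3.3 (lmFit, eBayes, no replicate block), p-values were adjusted by Benjamini-Hochberg over 45037 probe sets, and a probe set passed at an adjusted p under 0.1. The methods also ask for a log2 fold change of at least 1, which the brightest *Lifr* probe set and the 4 passing STAT3 targets meet. The steps were tested on simulated data. The members, the pathway and marker lists, the tests and the alternatives were chosen with earlier results of these data known. Named genes are the 9 members at every probe set, from each pathway list those that passed, or the 2 of largest change where none did, the 5 genes nearest to a member that passed, *Tpbg* and *Hprt*. *Pias1*, *Pias2*, *Stat6*, *Usp18*, *Ifit3*, *Pim1* and the marker genes were named outside this rule, after their values were seen. Exact permutation tests over arrays were used for ratios within arrays. Precision is limited by the 3 arrays per group. Per the methods the samples used were those that varied little among replicates, so the spread may be understated. 13 listed genes had no single-symbol probe set in the table used and were not analysed here.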

Additional observations from a re-analysis of the deposited data

How the results depend on the processing

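Across the alternatives the direction of the brightest *Lifr* probe set and of the 4 passing STAT3 targets was kept, while the number of probe sets that passed varied widely. With 1 array or 1 replicate number left out, between 0 and 8 member probe sets were lower and between 0 and 1 higher. At their brightest probe set 0 to 3 members were lower and 0 higher, and 0 to 12 pathway genes were lower and 0 to 2 higher. Over all probe sets the same settings gave 0 to 1798 lower and 0 to 1762 higher. The 8 member probe sets and the 1798 of all probe sets were both those without the pair numbered 1. No *Lifr* or STAT3 target call was kept without differentiating replicate 2, differentiating replicate 3, undifferentiated replicate 3, or the pairs numbered 2 or 3. In these settings only 0 to 3 of all probe sets were lower and 0 higher. Array weights gave 10 member probe sets lower and 4 higher, 3 members lower and 2 higher, and 15 pathway genes lower and 10 higher, but also 3595 lower and 3579 higher of all probe sets. The cause was not tested. Leaving out the dimmer probe sets gave 3 member probe sets lower, with 551 lower and 280 higher of all probe sets kept. At an adjusted p under 0.05, 2 pathway genes were lower.

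Correlations of the deviations of same-numbered arrays from their group means were 0.21, -0.11 and 0.11. Those of arrays with unlike numbers ran from -0.31 to 0.32. Not every pair deviated together, so the numbers are not taken to pair the samples, although both arrays numbered 2 share the high *Hprt* values. With the replicate number as a block, 2 member probe sets and 2 members at their brightest probe set were lower, *Stat3* being added (adjusted p = 0.0838), and no other member call changed. Of all probe sets, 388 were lower and 265 higher with the block.

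Signs that turned were those of small changes that never passed: *Jak1* at 1433805_at (-0.039 with median centring), 1433803_at (0.013 after a second quantile normalization) and 1433804_at (0.017 with array weights). With arrays left out, the changes ranged from -0.14 to 0.20, -0.18 to 0.11 and -0.33 to 0.092 at these probe sets, from -0.25 to 0.28 and -0.62 to 0.066 for *Stat2* (1450403_at and 1421911_at) and from -0.033 to 0.35 for *Stat3* at 1424272_at. The table holds no detection calls, which limits what the dimmer probe sets can show.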
